A study of Mus musculus with 12 samples.

Results

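The microRNAs described here are miR-10a and miR-10b, each with its 5p and 3p arm, and the 5p arms of miR-196a and miR-196b, all of which are encoded inside the Hox clusters. The 6 names were taken by name from the deposited count table, where all 6 were found among 1915 mouse names (1982 names in all). Small RNA was counted in extracellular vesicles precipitated from plasma of male C57BL/6J mice, an inbred laboratory strain, 8 days after surgery. One group had bile duct ligation (BDL), in which the bile duct is tied off so that bile accumulates and injures the liver, and the control group had a sham operation. Each group has 6 libraries, and no allele, transgene or drug is named in the labels. Vesicles in plasma come from many tissues. The labels also name liver as the tissue, and a fall in the number of vesicles of a source cannot be told apart from less RNA per vesicle.

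Hox genes encode transcription factors that give cells their position along the head-to-tail axis, and they stand in 4 clusters in the mouse. MicroRNA genes lie between them, miR-10 near the genes for the neck and hindbrain and miR-196 further towards the tail end. Each hairpin can give a mature RNA from its 5p and its 3p arm, and for miR-10 and miR-196 the 5p arm is the guide that is usually loaded into Argonaute, while the other arm is mostly degraded. miR-196a directs cleavage of Hoxb8 mRNA in mouse embryos, and miR-10b represses HOXD10 in human breast cancer cells. miR-10a is also known from human endothelium, where it restrains inflammatory signalling.

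The mature sequences are shown first because the counts rest on telling near-identical RNAs apart. They are RefSeq sequences on GRCm38.p6, written 5′ to 3′, with the seed (bases 2 to 8, the part that pairs with targets) in capitals. A sequence was found for 6 of the 6 names, and the species prefix mmu is left out of the names after this.
mmu-miR-10a-5p: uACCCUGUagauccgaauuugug
mmu-miR-10b-5p: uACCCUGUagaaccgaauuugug
mmu-miR-10a-3p: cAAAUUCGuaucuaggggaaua
mmu-miR-10b-3p: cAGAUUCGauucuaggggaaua
mmu-miR-196a-5p: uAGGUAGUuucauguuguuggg
mmu-miR-196b-5p: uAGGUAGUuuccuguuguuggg

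The guides of miR-10a and miR-10b share the seed ACCCUGU and differ by 1 base, U12A, counted from the 5′ end with the miR-10a base first. The guides of miR-196a and miR-196b share the seed AGGUAGU and differ by A12C. The 3p arms of miR-10a and miR-10b differ at 3 bases, A3G, U9A and A10U, of which the first lies in the seed. How reads that do not reach or misread these bases were assigned is not given in the sources used here, so the split within each guide pair is uncertain. Outside the Hox clusters, miR-99a, miR-99b and miR-100 are relatives by sequence, shown here because they give a comparison with the miR-10 guides.
mmu-miR-99a-5p: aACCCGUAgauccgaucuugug
mmu-miR-99b-5p: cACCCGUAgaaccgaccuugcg
mmu-miR-100-5p: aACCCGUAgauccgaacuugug
Their seed, ACCCGUA, is not that of miR-10. miR-10a-5p shares a run of 11 bases with miR-100-5p (GUAGAUCCGAA), and miR-10b-5p shares a run of 10 bases with miR-99b-5p (GUAGAACCGA).

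The hairpins of miR-10a and miR-10b are shown with both mature arms in capitals, since the arms of miR-10a gave different results.
Mir10a: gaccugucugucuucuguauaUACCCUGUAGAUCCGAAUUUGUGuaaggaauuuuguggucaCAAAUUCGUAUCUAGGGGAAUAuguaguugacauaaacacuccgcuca
Mir10b: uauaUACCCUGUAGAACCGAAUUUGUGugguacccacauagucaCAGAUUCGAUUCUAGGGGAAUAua
Positions are on GRCm38.p6 with genes from GENCODE M21, and the build behind the deposited counts may differ. Mir10a (chr11:96317165-96317274, plus strand) lies outside other annotated genes, 993 bases from Hoxb4. Mir10b (chr2:74726070-74726137, plus strand) lies in introns of Hoxd3 and Hoxd4. miR-196a-5p is encoded identically by 2 hairpins and has a single name in the table. Mir196a-1 (chr11:96265164-96265265, plus strand) lies 6192 bases from Hoxb9, in the same cluster as Mir10a, and Mir196a-2 (chr15:102973350-102973434, plus strand) lies in an intron of an annotated Hoxc5 transcript, 1457 bases from Hoxc10. Mir196b (chr6:52230081-52230165, minus strand) overlaps an exon annotated to Hoxa9.

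Library totals ran from 121003 to 3506914 counts in BDL and from 659302 to 2684636 in sham. Levels are given in CPM, counts scaled to a library size of 1000000 after trimmed-mean (TMM) correction. The mature lengths of the 6 names are 22 or 23 bases, so no length correction was applied. Counts were tested with edgeR's quasi-likelihood test over the 341 names that passed its filter on low counts, with Benjamini-Hochberg adjustment. Of these 341 names, 42.8% passed an adjusted p of 0.05, 24.6% as higher and 18.2% as lower in BDL, and the median log2 fold change over all 341 was 0.031. BDL libraries 2, 4 and 6, whose sample codes end in 26, were shallow, at 623117, 121003 and 666310 counts. Sham 6, which also ends in 26, was about as shallow as BDL 2 and BDL 6, at 659302 counts. The meaning of the code endings 24 and 26 is not given, and each ending holds 3 BDL and 3 sham libraries.

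Of the 6 names, 3 passed the filter, each in all 6 libraries of both groups. Among these 3, miR-10a-3p was higher in BDL, 0 were lower, and miR-10a-5p and miR-10b-5p did not pass the threshold. Together the 6 names took 0.840 ± 0.478% of all BDL counts and 0.851 ± 0.286% of all sham counts (SD, n = 6 per group). Both guides of miR-10 made up at least 99.0% of that sum in every BDL library and at least 99.55% in every sham library.

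miR-10a-5p was an abundant name, ranked 19 of 341 by mean level. Its lowest, median and highest levels were 3238, 5008 and 8932 CPM in BDL, against 3871, 4149.6 and 7917 CPM in sham. The groups overlapped, with BDL 1 above and BDL 2 below every sham library. The means were 5271.5 ± 1960.1 CPM in BDL and 4892 ± 1574 CPM in sham (SD, n = 6 per group), and the log2 fold change was 0.11 ± 0.27 (SE; edgeR adjusted p = 0.779). That value was 0.72 ± 0.28 among libraries with code ending 24 (adjusted p = 0.0692) and -0.53 ± 0.37 among those with ending 26 (adjusted p = 0.274), and the difference between the endings was -1.20 ± 0.46 (edgeR interaction, adjusted p = 0.141). The direction of so small a change turned with the scaling, to -0.014 with DESeq2 size factors.

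miR-10b-5p, ranked 26 of 341 by mean level, had lowest, median and highest levels of 970.5, 2092 and 4543 CPM in BDL, against 2512, 3538 and 5572 CPM in sham. BDL 2, 4 and 6 lay below every sham library, whereas BDL 1, 3 and 5 lay within the sham range. The means were 2397 ± 1394 CPM in BDL and 3692 ± 1099 CPM in sham (SD, n = 6 per group), with a log2 fold change of -0.62 ± 0.35 (edgeR adjusted p = 0.162). Without BDL 5 it was -0.97 (adjusted p = 0.0343), and without the shallow BDL 2, 4 and 6 it was -0.017 (adjusted p = 0.962).

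The miR-10b-5p levels of the BDL libraries fell into 2 ranges by code ending. Among libraries ending in 26, BDL 2, 4 and 6 had 970.5, 1495 and 1301 CPM, against 3717, 2512 and 5572 CPM in sham 2, 4 and 6. That difference was a log2 fold change of -1.67 ± 0.39 (edgeR adjusted p = 0.00411, 3 against 3). Among libraries ending in 24, BDL 1, 3 and 5 had 3382, 2689 and 4543 CPM, against 2817, 4175 and 3359 CPM in sham 1, 3 and 5. The log2 fold change there was 0.066 ± 0.28 (adjusted p = 0.871). Tested directly, the difference between the endings was -1.69 ± 0.48 with an adjusted p of 0.0556 over all names, so it did not pass the threshold. The 3 BDL libraries with low miR-10b-5p are also the shallow BDL libraries, with miR-10b-5p counts of 540, 187 and 709. Sham 6, with a library total of 659302 counts, had 5572 CPM. Among the BDL libraries depth and code ending cannot be told apart, and the part of depth was not tested.

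miR-10a-3p, the arm opposite the guide, rose 2.68-fold in BDL. Its lowest, median and highest levels were 8.29, 31.1 and 40.4 CPM in BDL, against 7.62, 9.13 and 16.3 CPM in sham. BDL 1, 2, 3 and 6 exceeded every sham library, and BDL 4 and BDL 5 lay within the sham range. The means were 27.6 ± 13.2 CPM in BDL and 10.3 ± 3.35 CPM in sham (SD, n = 6 per group), a log2 fold change of 1.42 ± 0.40 (edgeR adjusted p = 0.00878). The raw counts were 186, 20, 70, 2, 13 and 22 in BDL 1 to 6 and 25, 40, 11, 10, 24 and 5 in sham 1 to 6, so BDL 4 rests on 2 reads. Within code ending 24 the log2 fold change was 1.41 ± 0.52 (adjusted p = 0.0569) and within ending 26 it was 1.44 ± 0.54 (adjusted p = 0.0511), and with no count filter the adjusted p was 0.0694.

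**Figure D1:**
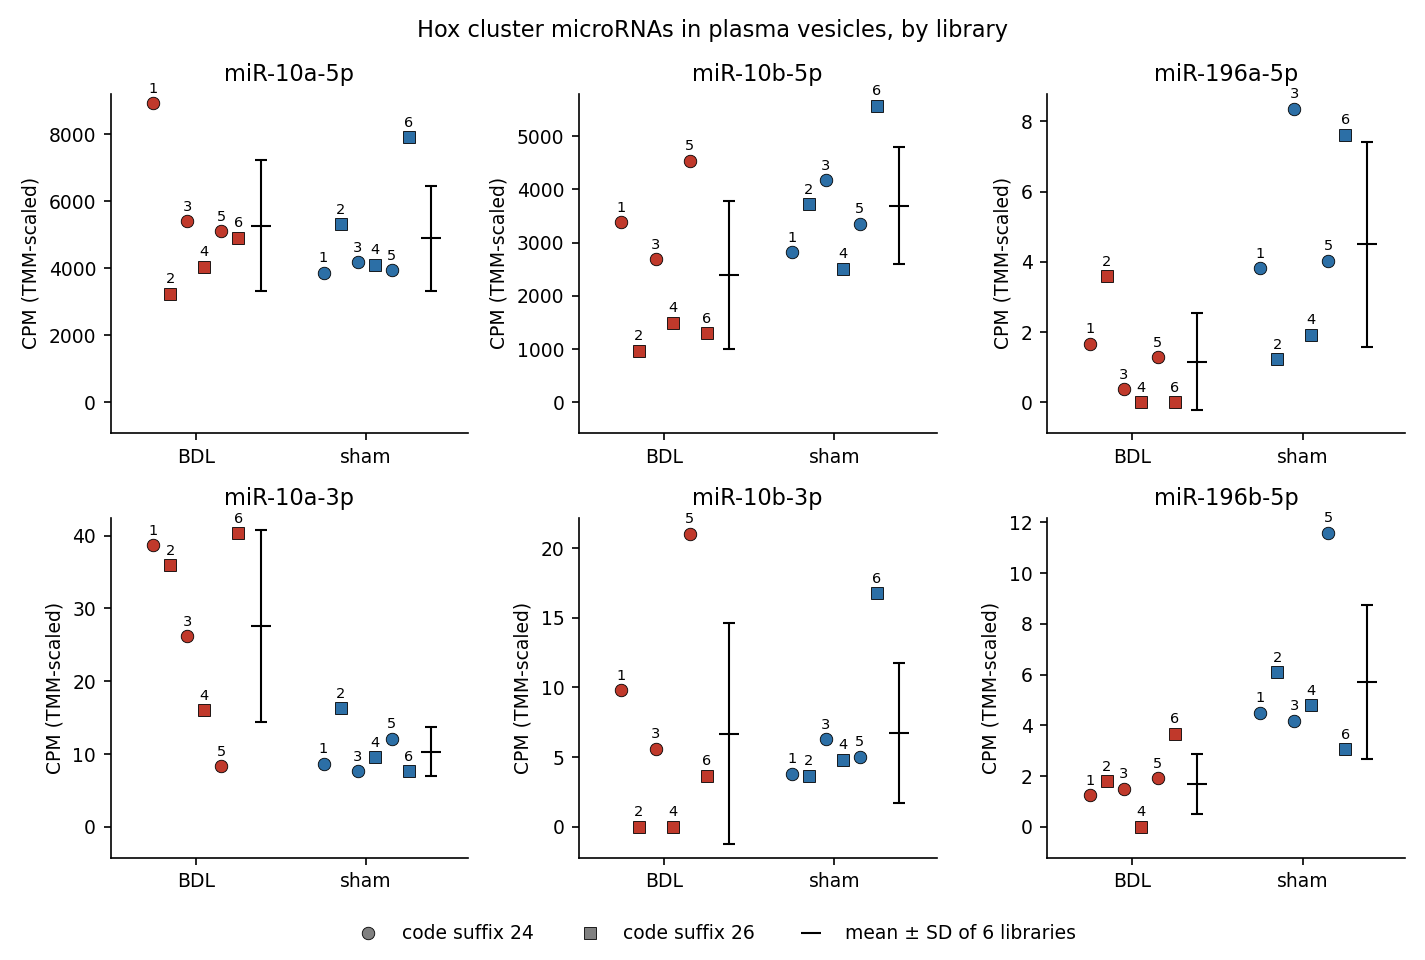
Level of each of the 6 names in every library, in CPM on linear axes, with BDL on the left and sham on the right of each panel; numbers give the library, circles and squares the code endings 24 and 26, and bars the mean ± SD of 6 libraries. miR-10b-5p is lowest in BDL 2, 4 and 6, miR-10a-3p is above every sham library in 4 of 6 BDL libraries, and both miR-196 guides stay under 12 CPM.

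The 3 remaining names had at most 47 counts in a library and did not pass the filter, so they have no test in the fit over all names. miR-10b-3p, the opposite arm of the miR-10b hairpin, had 47, 0, 15, 0, 33 and 2 counts in BDL 1 to 6, against 11, 9, 9, 5, 10 and 11 counts in sham 1 to 6. The zeros were in the shallow BDL 2 and BDL 4, where a count of 0 allows up to 5.39 and 24 CPM, above the sham median of 4.92 CPM, so absence there was not detectable at this depth. A filter of at least 10 counts in at least 6 libraries let it in, with a log2 fold change of 0.37 ± 0.60 (edgeR adjusted p = 0.652). It was 0.45 ± 0.57 with no count filter (adjusted p = 0.669), 0.84 ± 0.50 with libraries of 1 code digit summed (adjusted p = 0.201), 1.01 ± 0.54 without BDL 2, 4 and 6 (0.149) and 1.28 ± 0.59 within code ending 24 (0.114), so it was above 0 but past the threshold in none of these fits.

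Both miR-196 guides were scarce. miR-196a-5p had 8, 2, 1, 0, 2 and 0 counts in BDL 1 to 6, against 11, 3, 12, 2, 8 and 5 counts in sham 1 to 6. miR-196b-5p had 6, 1, 4, 0, 3 and 2 counts in BDL 1 to 6, against 13, 15, 6, 5, 23 and 2 counts in sham 1 to 6. Scaled to depth, miR-196a-5p averaged 1.15 ± 1.38 CPM in BDL and 4.49 ± 2.92 CPM in sham, and miR-196b-5p averaged 1.69 ± 1.19 CPM in BDL and 5.70 ± 3.05 CPM in sham (SD, n = 6 per group). The groups overlapped for both: 3 of 6 BDL libraries lay below the lowest sham library for miR-196a-5p and 5 of 6 for miR-196b-5p. BDL 4 had no read of either, and a count of 0 there allows up to 24 CPM, more than any sham library held. BDL 6 had no read of miR-196a-5p, where a count of 0 allows up to 5.51 CPM, above the sham median of 3.92 CPM. A level below sham was therefore not detectable from these zeros.

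With no count filter, edgeR gave a log2 fold change of -1.71 ± 0.79 for miR-196a-5p (adjusted p = 0.177) and -1.77 ± 0.72 for miR-196b-5p (adjusted p = 0.113). When the libraries that share the first digit of the sample code were summed, 3 sums against 3, miR-196b-5p entered the test and had -1.93 ± 0.55 (edgeR adjusted p = 0.0178). In that fit 3 of 3 sham sums and 0 of 3 BDL sums reached the level the filter asks for, so the filter itself favoured a name lower in BDL.

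Ratios between names within a library do not depend on how libraries are scaled, and 4 such ratios were tested. The test was an exact permutation test of the difference in means, two-sided, over all 924 divisions of the libraries into 6 and 6. Before the test, 0.5 was added to each count. That addition weighs more where counts are few, so ratios with a 3p arm still depend on depth. The balance of the miR-10 guides differed between the groups in the test over libraries. The ratio of miR-10a-5p to miR-10b-5p was 2.64, 3.33, 2.01, 2.70, 1.12 and 3.77 in BDL 1 to 6, against 1.37, 1.43, 1.00, 1.64, 1.17 and 1.42 in sham 1 to 6. All BDL libraries except BDL 5 exceeded every sham library. On the log2 scale the ratio averaged 1.28 ± 0.63 in BDL and 0.40 ± 0.25 in sham (SD, n = 6 per group), a difference of 0.87, or 1.83-fold (exact permutation p = 0.0173; 0.0476 adjusted over the 4 ratios). Within code ending 24 the difference was 0.63 (exact p = 0.3) and within ending 26 it was 1.12 (exact p = 0.1, the smallest that 3 against 3 allows). Without the shallow BDL 2, 4 and 6 it was 0.45 (exact p = 0.19). With 1 mean per first digit of the sample code, 3 against 3, it was 0.87 with an exact p of 0.1, again the smallest possible. The labels used here do not say what that digit means; if it marks a shared animal, the p-values over 6 libraries per group are too small.

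The balance of the arms of the miR-10a hairpin differed as well in the test over libraries. With 0.5 added to each count, the ratio of miR-10a-5p to miR-10a-3p was 230.2, 87.9, 205, 203, 593 and 119 in BDL 1 to 6, against 438, 323, 522, 408, 319.5 and 945 in sham 1 to 6. The ratio in BDL lay below every sham library in 5 of 6 libraries, with BDL 5 again the exception. The value of BDL 4 rests on 2 reads of miR-10a-3p and that of sham 6 on 5 reads, so both are imprecise. The log2 ratio averaged 7.63 ± 0.94 in BDL and 8.84 ± 0.58 in sham (SD, n = 6 per group), a difference of -1.21 (exact permutation p = 0.0238; 0.0476 adjusted over the 4 ratios). It was -0.46 within code ending 24 (exact p = 0.4), -1.96 within ending 26 (exact p = 0.1) and -0.59 without BDL 2, 4 and 6 (exact p = 0.238). With 1 mean per code digit it was -1.21 (exact p = 0.1, the smallest possible). Both ratios contain miR-10a-5p and are not independent of each other.

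For the miR-10b hairpin the log2 ratio of the 5p to the 3p arm averaged 8.63 ± 0.80 in BDL and 9.20 ± 0.54 in sham (SD, n = 6 per group), a difference of -0.57 (exact permutation p = 0.18; 0.24 adjusted). miR-10b-3p had no count in BDL 2 and BDL 4. Adding 1 count in place of 0.5 gave -0.88 (exact p = 0.0325), leaving out BDL 2 gave -0.86 (exact p = 0.026) and leaving out BDL 4 gave -0.55 (exact p = 0.25). The log2 ratio of miR-10b-5p to miR-99a-5p, its most abundant relative, averaged -2.92 ± 0.83 in BDL and -2.73 ± 0.56 in sham (SD, n = 6 per group), a difference of -0.19 (exact p = 0.645).

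**Figure D2:**
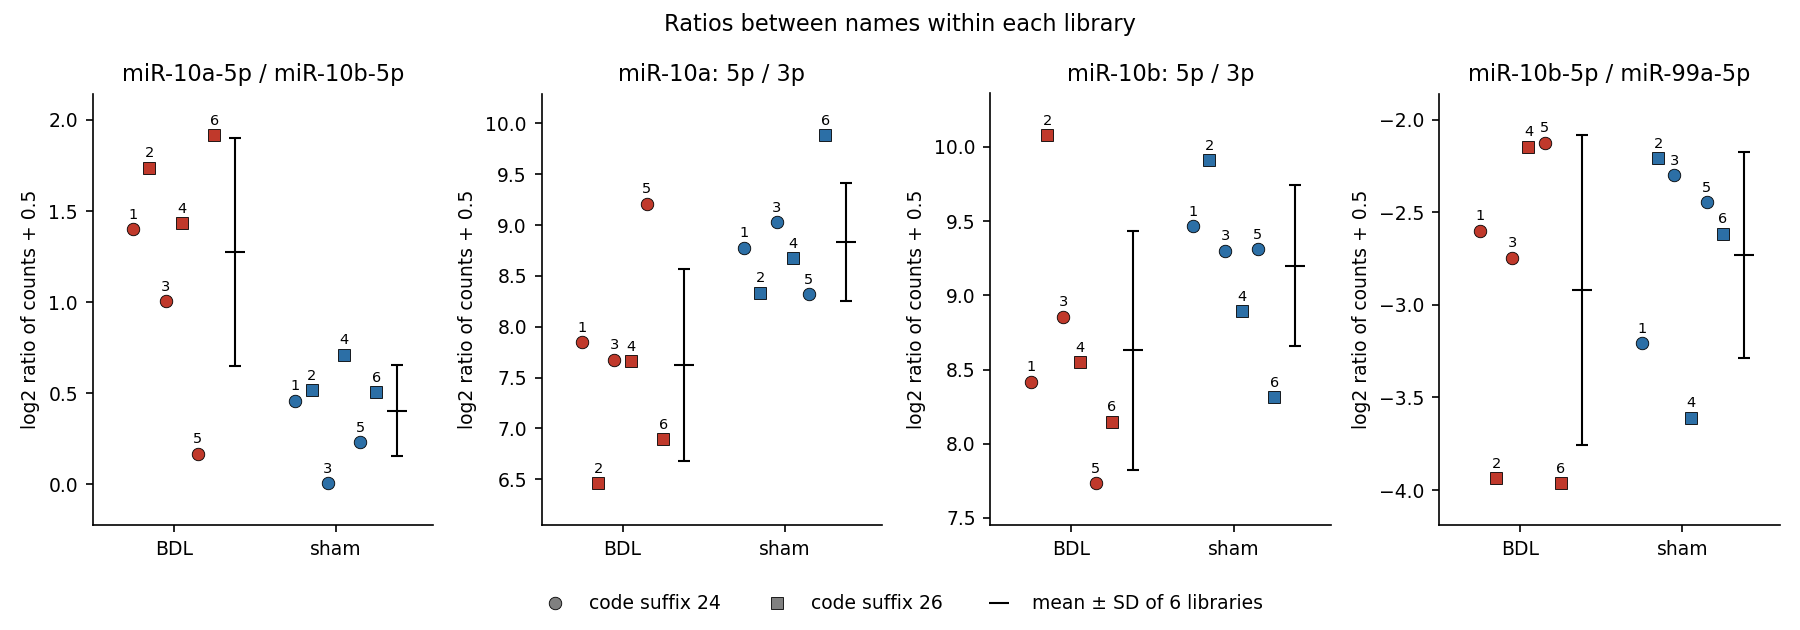
Log2 ratio of counts, with 0.5 added to each, between names of the same library for the 4 ratios tested, BDL left and sham right; numbers give the library, circles and squares the code endings 24 and 26, and bars the mean ± SD of 6 libraries. The ratio of miR-10a-5p to miR-10b-5p is above every sham library in 5 of 6 BDL libraries, and the miR-10a arm ratio is below every sham library in 5 of 6.

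Markers of other sources also moved between the groups, where 24.6% of all 341 tested names were higher and 18.2% lower in BDL. Of the hepatocyte names, miR-122-5p, miR-192-5p and miR-193a-5p were tested and 3 of 3 were higher, and the list summed to 74494 to 327672 CPM in BDL against 3846 to 25064 CPM in sham. BDL 5 had the lowest hepatocyte sum of the BDL libraries, and its ratio of miR-10a-5p to miR-10b-5p and its miR-10a arm ratio lay in the sham range. BDL 2, with the next lowest sum (146274 CPM), had ratios of 3.33 and 87.9. BDL 6, with the next highest sum (243187 CPM), had ratios of 3.77 and 119. BDL 4, with the highest sum, had ratios of 2.70 and 203, the latter resting on 2 reads of miR-10a-3p. Whether either ratio goes with the hepatocyte sum was not tested. Of the endothelium and platelet names 2 of 2 were lower, with sums of 631 to 2619 CPM in BDL and 3151 to 8883 CPM in sham. Of the leukocyte names 3 of 4 were lower, with sums of 552 to 2208 CPM in BDL and 2798 to 6416 CPM in sham. Both of these lists were lowest in BDL 2, 4 and 6, like miR-10b-5p: the endothelium and platelet sum there was 631 to 773 CPM, against 2032 to 2619 CPM in BDL 1, 3 and 5. Of 4 red cell names tested 2 were lower (124801 to 378361 CPM in BDL, 358588 to 556055 CPM in sham), of 4 mesenchymal names 2 were higher and 2 lower (1091 to 2187 CPM in BDL, 2411 to 3326 CPM in sham), and of 3 striated muscle names 2 were lower (615 to 1680 CPM in BDL, 1088 to 1971 CPM in sham). Marker names with a count of 0 in at least 1 library were miR-122-3p, miR-144-3p, miR-144-5p, miR-142a-3p, miR-223-3p and miR-206-3p. The part of these sources in the miR-10 results was not tested.

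The other names from Hox cluster hairpins gave no call. miR-615-3p, from a hairpin in an intron of Hoxc5, was the single tested name of 5. It ranged from 55.6 to 543 CPM with a median of 169 in BDL, against 106 to 472 CPM with a median of 132 in sham, and its log2 fold change was 0.067 ± 0.49 (edgeR adjusted p = 0.938). BDL 4 and sham 6 were the highest libraries of their groups. The 3p arms of miR-196a-1, miR-196a-2 and miR-196b summed to 28, 2 and 5 counts over the BDL libraries and to 12, 5 and 0 counts over the sham libraries, and miR-615-5p to 16 and 11.

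Among the relatives outside the Hox clusters, 1 of 4 tested names rose and 0 fell, against 24.6% and 18.2% of all 341 names. miR-99b-3p, an arm opposite a guide like miR-10a-3p, averaged 169.3 ± 52.0 CPM in BDL and 39.6 ± 9.73 CPM in sham (SD, n = 6 per group), a log2 fold change of 2.07 ± 0.30 (edgeR adjusted p = 7.53e-05). Its groups did not overlap, which also held for the hepatocyte markers miR-122-5p, miR-192-5p and miR-193a-5p. The share of all tested names without overlap was not counted. The guides miR-99b-5p, miR-100-5p and miR-99a-5p had log2 fold changes of 0.33 ± 0.22, 0.031 ± 0.30 and -0.55 ± 0.28 (adjusted p = 0.246, 0.947 and 0.127). miR-100-5p, like miR-10a-5p, had values on either side of 0 by code ending, with 0.52 ± 0.29 for 24 and -0.56 ± 0.41 for 26, and neither passed the threshold (adjusted p = 0.194 and 0.288). miR-99a-3p had no count in any library and miR-100-3p had 1 in all. The median log2 fold change of the 4 tested relatives was 0.18, that of the 3 tested Hox cluster names above was 0.11, and that of all 341 names was 0.031.

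**Figure D3:**
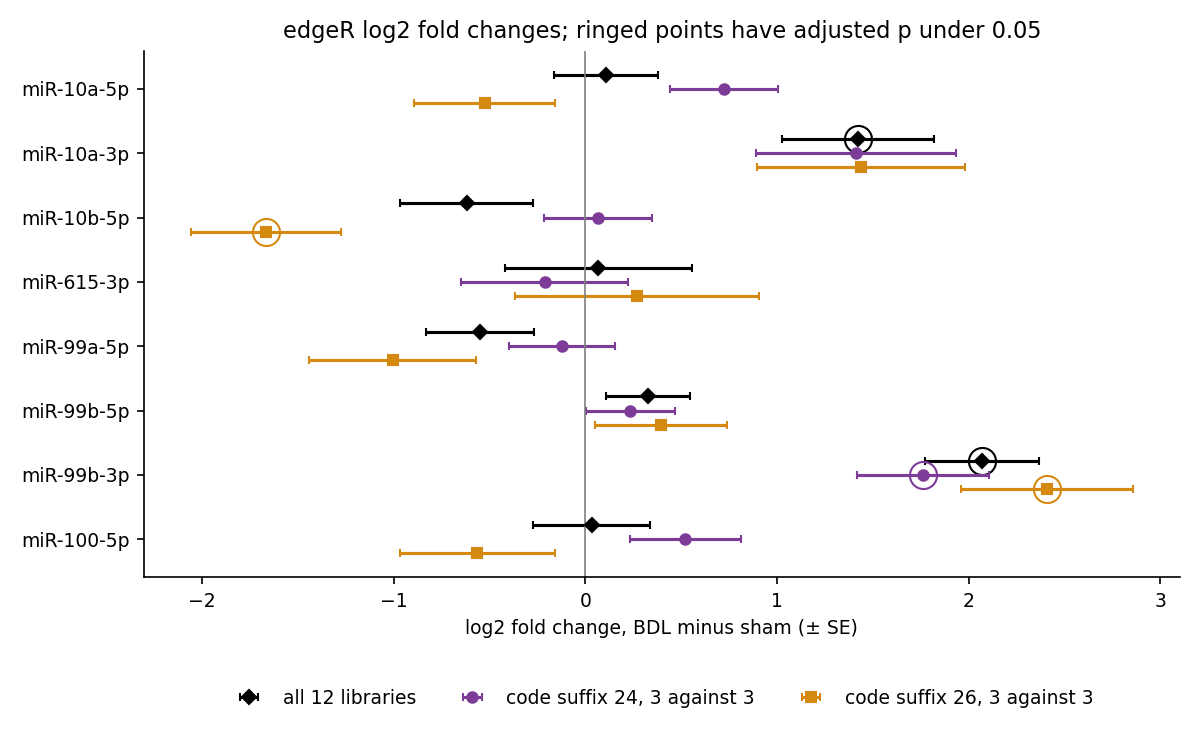
Log2 fold change (BDL minus sham) ± SE of the tested Hox cluster names and the tested miR-99 and miR-100 names, in all 12 libraries and within each code ending; rings mark an adjusted p under 0.05. miR-10a-3p lies at 1.41 to 1.44 in all 3 fits, while miR-10b-5p lies at 0.066 for ending 24 and at -1.67 for ending 26.

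The difference between the arms of miR-10a was set against the other hairpins with both arms tested, 63 in all. The log2 fold change of the less abundant arm minus that of the more abundant arm was 1.31 for miR-10a, the rank 11 of 63, and 1.74 for miR-99b, the rank 6. Over the 63 hairpins the median was 0.086, with the middle of the distribution between -1.14 and 1.03 (quartiles). The less abundant arm was called higher in 16 of them and the more abundant arm in 18. This is a description with no test, and miR-10a lay above the upper quartile without being among the 10 largest.

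**Figure D4:**
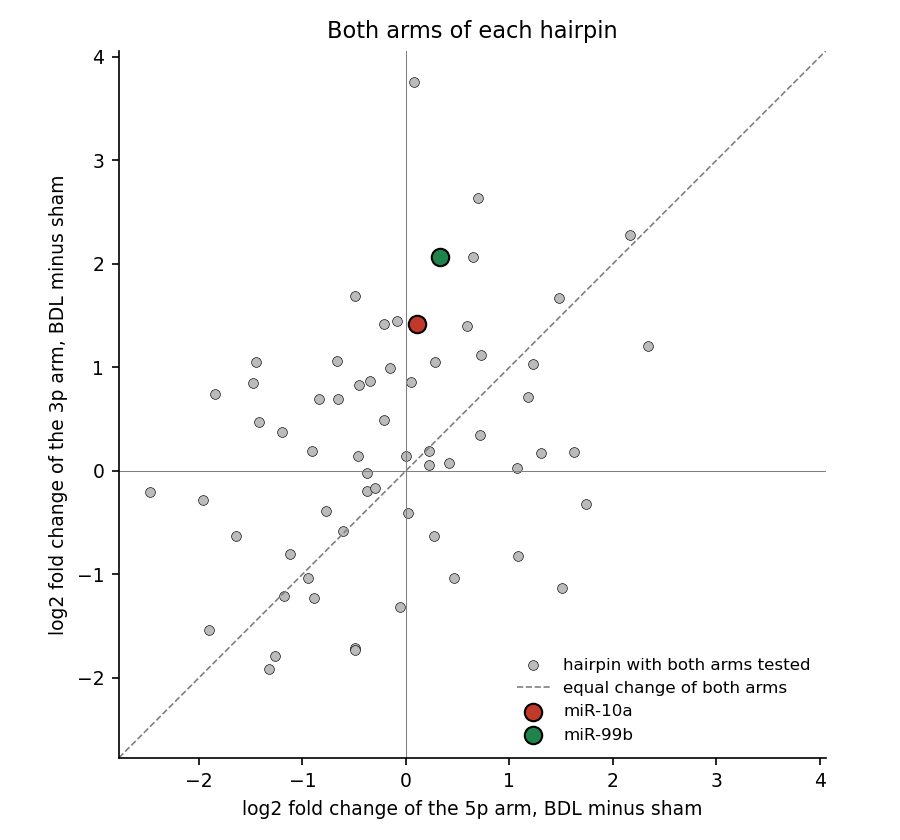
Log2 fold change (BDL minus sham) of the 5p arm on the horizontal axis and of the 3p arm on the vertical axis for 63 hairpins with both arms tested; the dashed line marks equal change. miR-10a (0.11 and 1.42) and miR-99b (0.33 and 2.07) lie above the line, with other hairpins as far from it.

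The names whose pattern over the 12 libraries was most like each miR-10 guide were found by the root mean square difference of log2 CPM, each name centred on its own mean. For miR-10a-5p these were miR-342-5p (0.28), miR-152-3p (0.39), miR-139-5p (0.39), miR-100-5p (0.40) and miR-532-5p (0.40), against a median of 0.96 over 340 other names. All 5 missed the threshold between the groups, as miR-10a-5p and 195 of all 341 tested names did. The patterns span both groups, so names chosen this way tend to share the guide's difference between the groups. That likeness, for either guide, is no separate result. For miR-10b-5p they were miR-30a-3p (0.45), miR-340-5p (0.50), miR-143-3p (0.50), miR-181b-5p (0.51) and miR-25-3p (0.52), against a median of 1.07. Of these, miR-30a-3p, miR-143-3p and miR-181b-5p were lower in BDL (log2 fold changes of -1.04, -1.13 and -1.22; adjusted p = 0.00473, 0.00189 and 0.0108). The other miR-10 guide, which differs by a single base, came at rank 49 for miR-10a-5p and at rank 16 for miR-10b-5p, at a difference of 0.62.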

How the data were processed

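The deposited table holds read counts per mature microRNA name for 12 libraries (6 BDL, 6 sham), and its whole-number values show no normalisation by the authors. Cutadapt and STAR were used, per the submitters' processing notes; versions, genome build and the treatment of reads that match several names are not given in any source used here. No molecular identifiers are described, so limits from a count of 0 cover counting error only. The 67 names of other species were left out. The count test was edgeR 4.0.16 (R 4.3.3) with TMM scaling, its filter by group (minimum count 10) and an adjusted p of 0.05. CPM values use TMM-scaled sizes, log2 CPM has a prior count of 2, and the SE comes from the log2 fold change and its F statistic (fold change over root F). Single ratios were compared with exact permutation tests in scipy 1.17.1. The edgeR fit was tried on simulated counts with known fold changes, and the permutation code on small made-up lists of numbers.

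Members and lists were chosen with earlier results of these data known. Named microRNAs were all members, all names of the lists, and the 5 most similar patterns for each miR-10 guide. The design text speaks of 6 animals per group, but pairs of libraries share a code digit of unstated meaning, and p-values measure the spread between libraries. Deviations from the group mean correlated at -0.56 to -0.11 between libraries sharing that digit. Subtracting the mean of their own group lowers such correlations by itself, and these libraries carry different code endings. The values therefore cannot tell whether they share an animal. Alternatives were DESeq2 1.42.0, limma 3.58.1 (voom), other scalings and filters, a replicate block, the code ending as a covariate, fits within each ending, sums by digit, and leaving out each library. The fit without BDL 2, 4 and 6 was chosen after seeing the data.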

Additional observations from a re-analysis of the deposited data

Results flagged for a closer look

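Of 24 groups of 6 values looked at, 2 held a library far from the other 5, where chance gives about 1 in 20. Both were relatives of miR-10 outside the Hox clusters. miR-99a-5p in BDL 4, the shallowest library, was at 12.70 log2 CPM, against 13.86 to 14.32 in the other BDL libraries. miR-99b-5p in sham 6 was at 10.79 log2 CPM, against 10.04 to 10.31 in the other sham libraries.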

How the results depend on the processing

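miR-10a-3p was higher under each of 12 other settings and in each fit without 1 library (log2 fold change 1.15 to 1.58). It missed the threshold in 3 settings: 1.31 with no count filter, 1.41 within ending 24 and 1.44 within ending 26. miR-10a-5p passed it in none, and its direction turned with DESeq2 size factors (-0.014), the DESeq2 test (-0.014), within ending 26 (-0.53) and in 4 of 12 fits without 1 library (-0.19 to 0.18). miR-10b-5p turned to 0.066 within ending 24 and passed at -1.67 within ending 26, with -0.97 to -0.48 without 1 library; among those fits it passed only without BDL 5. The ratio of miR-10a-5p to miR-10b-5p kept its direction but missed the threshold within ending 24 (0.63) and ending 26 (1.12), with 1 mean per code digit (0.87), with the replicate block (0.87, exact sign-flip p = 0.0625) and without BDL 2, 4 and 6 (0.45); without 1 library it was 0.74 to 1.09. The miR-10a arm ratio did so in the same settings (-0.46, -1.96, -1.21, -1.21 and -0.59; -1.53 to -0.98 without 1 library). With 3 against 3 no exact p can go below 0.1. The miR-10b arm ratio passed with a pseudocount of 1 (-0.88) and was -0.86 to -0.39 without 1 library. The ratio of miR-10b-5p to miR-99a-5p turned within ending 24 (0.16), without BDL 2, 4 and 6 (0.24) and in 2 of 12 fits without 1 library (-0.36 to 0.020).

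Names called numbered 146 of 341, and 102 to 176 in other settings. Whether shared sample numbers pair libraries was not settled (correlations -0.09 to 0.31, with 5 of 12 libraries correlating best with their own number). Libraries with the same number also have the same code ending. The replicate block gave 133 calls and changed none of the 3 tested names. The median over all names was -0.11 with DESeq2 size factors and 0.12 with total counts. For miR-10b-3p, miR-196a-5p and miR-196b-5p most settings gave no value. Depth limits BDL 4, where 1 read is 7.99 CPM.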
